A study of Homo sapiens with 5 samples.

Results

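MYC CUT&RUN peaks were examined at 5 genes: ELFN1-AS1, DDX42, TACR2, CCDC124 and ESRRA. They were selected on the fold enrichment of MYC itself. The first 4 are the genes nearest to 4 of the 10 highest reproducible MYC peaks, and ESRRA, whose peak ranked 40 of 11756, was added by name. They are 5 of the 38899 protein-coding and lncRNA genes of GENCODE 44 (20033 and 18866) on chromosomes 1 to 22, X and Y. Every deposited peak from 5 kb upstream of a gene to its end was taken, and MYC and HSF1 lists of the same replicate number were compared.

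The cells were OVCAR8, an established human ovarian carcinoma line, grown without a drug or an introduced genetic change in any library. The paper reports that the MYC and HSF1 genes are both amplified in this line. In CUT&RUN an antibody brings a nuclease to a protein on chromatin, and the released DNA fragments are sequenced. Each reaction held 500000 cells fixed with 1% formaldehyde for 1 min. There were 2 MYC libraries, 2 HSF1 libraries and 1 IgG library, which was the background for all 4 peak lists and has no list of its own. The labels do not state that the replicates came from separate cultures, so the spread between them may be technical. Depth ranged from 8265647 to 10084407 fragments in the antibody libraries, and the IgG library had 9306942. Peaks were called at p-value thresholds of 1e-10 for MYC and 1e-04 for HSF1, so the lists of the 2 factors do not have the same reach.

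MYC is a basic helix-loop-helix leucine zipper transcription factor. With its partner MAX it binds the E-box, of which CACGTG is the preferred form and CACGCG and CATGTG are weaker ones, and it occupies the promoters of many active genes, among them those of ribosome and RNA metabolism. HSF1 drives the response to heat shock and other protein damage, and it binds heat shock elements, arrays of GAA units in alternating orientation. CUT&RUN shows where a factor sits and carries no measure of the expression of the gene.

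The 5 genes have different products. ELFN1-AS1 is a lncRNA transcribed antisense to ELFN1, which encodes a postsynaptic leucine-rich repeat membrane protein. DDX42 is a DEAD-box RNA helicase that associates with the SF3b complex of the spliceosome. TACR2 is the G protein-coupled receptor for neurokinin A. CCDC124 is a ribosome-associated protein. ESRRA, the estrogen-related receptor alpha, is an orphan nuclear receptor that acts with PGC-1 coactivators on genes of mitochondrial metabolism.

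All 5 genes had CACGTG E-boxes inside their MYC peaks. Merged over both replicates, these peaks were 802 to 2381 bp wide, against a median of 774 bp over all reproducible MYC peaks. The share of all peaks with an E-box anywhere inside is not given here. The E-boxes nearest to a MYC summit are given because they show the motif in its surroundings. The stretches at ELFN1-AS1, CCDC124 and ESRRA run from the E-box to just past the summit of MYC replicate 2, while those at DDX42 and TACR2 hold the E-boxes alone and stop short of the summit. All are plus-strand sequence of GRCh38 with CACGTG in capitals. They come from chr7:1741997-1742136 (ELFN1-AS1), chr17:63773837-63773866 (DDX42), chr10:69409283-69409351 (TACR2), chr19:17932711-17932886 (CCDC124) and chr11:64305939-64306123 (ESRRA).
ELFN1-AS1: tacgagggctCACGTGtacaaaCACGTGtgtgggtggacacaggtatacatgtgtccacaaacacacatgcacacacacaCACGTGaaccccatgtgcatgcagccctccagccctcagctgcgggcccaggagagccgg
DDX42: gctgtgtgggacCACGTGgccagaggcaag
TACR2: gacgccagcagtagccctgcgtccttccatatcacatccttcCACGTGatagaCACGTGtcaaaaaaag
CCDC124: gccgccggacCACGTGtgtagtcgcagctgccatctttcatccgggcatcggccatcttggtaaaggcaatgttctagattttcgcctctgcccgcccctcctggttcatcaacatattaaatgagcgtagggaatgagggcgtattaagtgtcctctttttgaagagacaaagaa
ESRRA: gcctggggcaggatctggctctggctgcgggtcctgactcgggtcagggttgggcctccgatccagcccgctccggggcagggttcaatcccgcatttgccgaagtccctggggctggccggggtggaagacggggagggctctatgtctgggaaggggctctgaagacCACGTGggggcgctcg
The ELFN1-AS1 stretch holds 3 E-boxes and the TACR2 stretch 2, while the other stretches hold 1 each.

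ELFN1-AS1 carried the highest reproducible MYC peak. The gene lies on the minus strand at chr7:1738630-1742291, and the peak at chr7:1741325-1743183 covers its start. The fold enrichment over IgG reached 93.3 in the first MYC replicate and 78.0 in the second, a mean of 85.6 ± 10.8 (SD, n = 2). The fold enrichment is the pileup plus 1 over the local background plus 1, and the pileup is the number of fragments that cover the summit. Here the pileup was 146 (95% Poisson interval 123 to 172, counting error only) in replicate 1 and 136 (114 to 161) in replicate 2. The background was only 0.576 and 0.756 fragments, 1.03 and 1.05 times the lowest in the 2 lists. The summits lay 90 bp and 146 bp inside the start of ELFN1-AS1-202, in intron 1. They also lay in intron 3 of ELFN1, so ELFN1 has the same MYC peak in its window. Neither HSF1 list had a peak there.

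DDX42 carried the second highest peak, and it had the most fragments of the 5. The fold enrichment was 77.8 in replicate 1 and 78.1 in replicate 2, a mean of 77.9 ± 0.197 (SD, n = 2), the closest agreement between replicates among these genes. The pileup reached 215 and 255 over backgrounds of 1.78 and 2.28 fragments, the highest backgrounds of the 5 genes. The peak spans chr17:63773323-63774650, and the gene runs from 63773603 to 63819317 on the plus strand. The summits were 16 bp apart. The higher one lay 202 bp upstream of the start of the canonical transcript DDX42-202 and 84 bp inside the start of DDX42-215. It was also 371 bp upstream of CCDC47-201, the canonical transcript of CCDC47, a gene on the other strand for an endoplasmic reticulum membrane protein. By annotation the 2 genes overlap, since another transcript, CCDC47-203, starts inside DDX42. The peak cannot be given to 1 of the 2 genes from these lists. Both HSF1 lists had a peak inside it.

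TACR2 differed in where its peak lay. The fold enrichment was 86.0 and 60.6, a mean of 73.3 ± 18.0 (SD, n = 2), with pileups of 147 and 116 over backgrounds of 0.720 and 0.932 fragments. Both replicates placed the summit on the same base, 7740 bp inside the gene (chr10:69403903-69416918, minus strand), in intron 2 of the canonical transcript TACR2-201. That base is 104 bp inside the annotated start of a short transcript, TACR2-202, and the 2 E-boxes lie 46 bp and 56 bp upstream of that start. The start of the canonical transcript had no MYC peak in either list, and neither did any other place in the window. HSF1 had no peak at TACR2.

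CCDC124 had fold enrichments of 59.3 and 55.4, a mean of 57.4 ± 2.76 (SD, n = 2). The pileups were 120 and 129 over backgrounds of 1.04 and 1.35 fragments. The peak at chr19:17932605-17933406 covers the start of the gene (chr19:17933015-17943991, plus strand), and its summits were 127 bp and 139 bp upstream. It was the narrowest of the 5 merged peaks at 802 bp, and the median over all reproducible MYC peaks was 774 bp. There was no HSF1 peak in either list.

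ESRRA had the lowest fold enrichment of the 5 and the largest ratio between replicates, 1.65, although the SD at TACR2 was larger. It was 51.9 in replicate 1 and 31.5 in replicate 2, a mean of 41.7 ± 14.4 (SD, n = 2). The pileup was 109 (95% Poisson interval 89.5 to 131) and 56 (42.3 to 72.7), intervals that do not overlap, and scaled to 1000000 fragments replicate 1 was 2.37 times replicate 2. The peak, chr11:64304266-64306646, was 2381 bp wide, wider than 98.8% of reproducible MYC peaks. The summits were 559 bp apart, 107 bp upstream of the first transcript start in replicate 1 and 452 bp inside the gene in replicate 2. The gene lies at chr11:64305497-64316743 on the plus strand. A second peak in the window was called in both lists, with fold enrichments of 22.8 and 15.2 and summits 4752 bp and 4528 bp upstream of ESRRA. That peak ranked 2077 and was nearest to CATSPERZ, a gene for a sperm cation channel subunit. HSF1 had a peak in both lists at the ESRRA start and none at the second site.

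The order of the genes by MYC fold enrichment was not the same in the 2 lists. ELFN1-AS1, DDX42 and TACR2 ranked 1, 3 and 2 in replicate 1 and 2, 1 and 3 in replicate 2, with ranges of replicate values that overlap. CCDC124 was below these 3 genes and above ESRRA in both lists, with ranks of 11 and 6, and ESRRA ranked 28 and 108. The ranges of ESRRA and CCDC124 did not overlap, but CCDC124 was selected on this value and ESRRA was added by name, so this gap is not a test. Next to the members, the peak at rank 4 was at the lncRNA gene ENSG00000233242 with a mean of 60.5, and that at rank 6 was at ENSG00000286874 with 55.7. The 10th peak, at NR6A1, had 53.1 and the 11th, at DUSP2, had 51.8. The mean stepped from 73.3 at rank 3 to 60.5 at rank 4, and from there to rank 11 neighboring values were close. The other peaks of the first 10 were nearest to MAP4, LARP1 and ENSG00000260100.

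**Figure D1:**
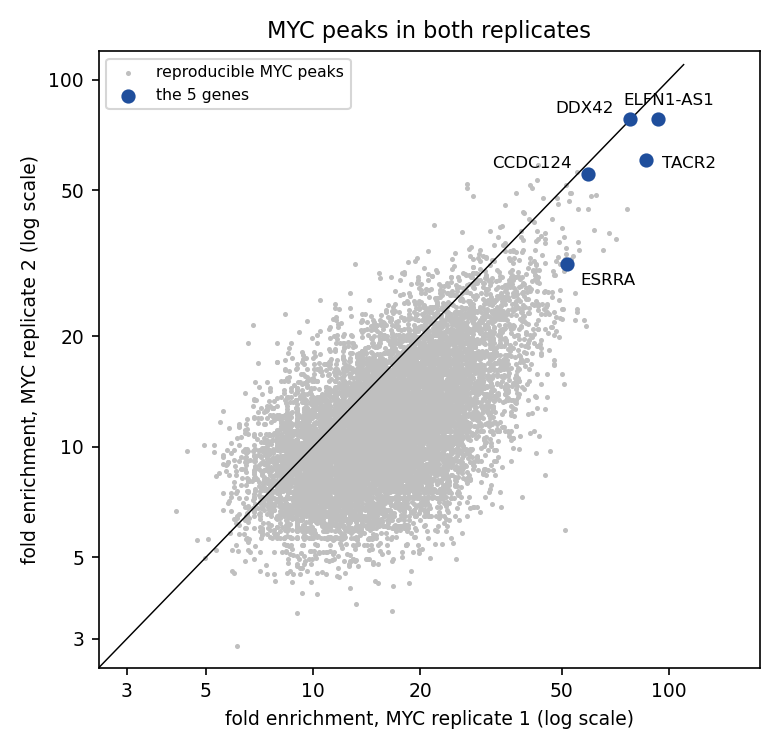
Each gray point is 1 of the 11756 reproducible MYC peaks, with the fold enrichment over IgG in MYC replicate 1 (x axis, log scale) against MYC replicate 2 (y axis, log scale), and the line marks equal values. ELFN1-AS1, DDX42, TACR2 and CCDC124 sit at the upper end, with 59.3 to 93.3 in replicate 1 and 55.4 to 78.1 in replicate 2, and ESRRA at 51.9 and 31.5 lies below the line.

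Fold enrichment and pileup did not order the genes alike. By mean pileup DDX42 kept rank 2, whereas ELFN1-AS1 was at rank 30, TACR2 at 39, CCDC124 at 53 and ESRRA at 303. By mean −log10 p-value the ranks were 4 for ELFN1-AS1, 2 for DDX42, 8 for TACR2, 20 for CCDC124 and 113 for ESRRA. The backgrounds at ELFN1-AS1 and TACR2 were 1.03 to 1.30 times the lowest of their lists, those at DDX42 were 3.17 and 3.18 times, and the values at CCDC124 were 1.86 and 1.87 times. Scaled to 1000000 fragments, DDX42 had 26.0 and 25.3 fragments at the summit, and ELFN1-AS1 had 17.7 and 13.5.

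**Figure D2:**
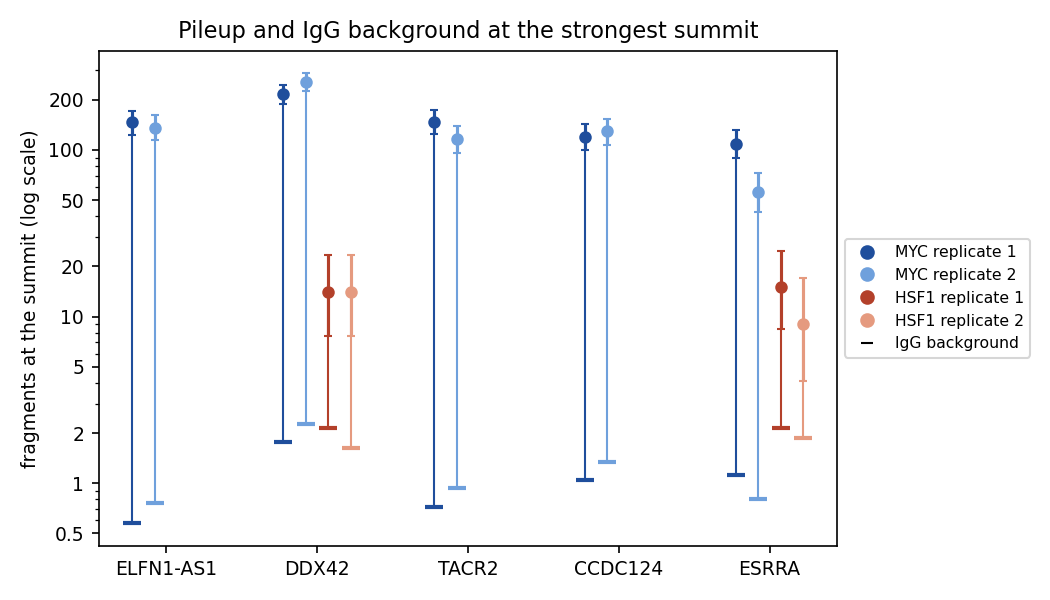
Fragments at the strongest summit of each gene (points, log scale) with 95% Poisson intervals for counting error, joined by a line to the IgG background at that summit (horizontal tick), for the 4 lists. DDX42 has the highest pileups, 215 and 255, above the highest backgrounds among the MYC values, 1.78 and 2.28, while ELFN1-AS1 reaches 146 and 136 above 0.576 and 0.756.

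All 5 genes had a MYC peak in both replicates, which the choice of the genes fixes. Over all genes, 46.9% had a MYC peak in the window in replicate 1, 33.4% in replicate 2 and 32.7% in both. The summit was within 1 kb of a transcript start at all 5 genes, a feature shared by 68.2% of reproducible MYC peaks. At TACR2 this rests on the short transcript TACR2-202.

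HSF1 peaks were called in both replicates at DDX42 and ESRRA, and in neither at ELFN1-AS1, TACR2 and CCDC124. Over all genes, 12.3% had an HSF1 peak in replicate 1, 9.13% in replicate 2 and 5.72% in both, and of the genes with MYC in both replicates 13.8% had HSF1 in both. With 5 genes, the 2 found here are a count and not a rate. MYC and HSF1 peaks overlapped at 2 of the 5 genes in each replicate, beside 9.71% of all genes in replicate 1, 5.01% in replicate 2 and 3.04% in both.

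At DDX42 the HSF1 fold enrichment was 4.75 in replicate 1 and 5.72 in replicate 2, from a pileup of 14 fragments in each (95% Poisson interval 7.65 to 23.5). These values were above 41.8% and 60.0% of the peaks of the 2 HSF1 lists. The peaks were 209 bp and 210 bp wide and lay wholly inside the MYC peaks, with summits 28 bp and 27 bp from the MYC summit of the same replicate. Scaled to 1000000 fragments, the MYC pileup was 18.7 times the HSF1 pileup in replicate 1 and 15.8 times in replicate 2. The 95% Poisson intervals of the MYC and HSF1 pileups were apart in both replicates. DDX42 was chosen for its high MYC peak, and the 2 factors were profiled with different antibodies. The ratios and intervals are therefore not a test of the 2 factors and do not compare their occupancy.

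At ESRRA the HSF1 fold enrichment was 5.07 and 3.48, from pileups of 15 (95% Poisson interval 8.40 to 24.7) and 9 (4.12 to 17.1). The first value was above 52.5% of its list and the second above only 3.86%. These peaks, 356 bp and 336 bp wide, also lay wholly inside the MYC peaks. Their summits were 231 bp and 205 bp upstream of the first ESRRA start, 124 bp from the MYC summit in replicate 1 and 657 bp in replicate 2, where the MYC summit is inside the gene. The HSF1 summits of the 2 replicates thus lay close to each other while the MYC summits did not. With the same scaling, the MYC pileup was 8.83 and 5.38 times that of HSF1. These ratios are between different antibodies as well and do not compare occupancy.

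The 4 HSF1 peaks at these genes were weak by the measure MYC peaks had to meet. Their −log10 p-values were 7.98 and 9.63 at DDX42 and 8.85 and 4.57 at ESRRA, so 0 of them reach 10, the limit for MYC. The share of all HSF1 peaks that reach 10 is not given here, so this cannot be read as particular to these genes. The IgG background there was 3.03 to 3.59 times the lowest of the HSF1 lists, and its part in these calls was not tested. None of the highest MYC peaks at the 5 genes contained the 13-bp heat shock element of 3 alternating GAA units, and so neither did the HSF1 peaks inside them. Over all reproducible MYC peaks, only 0.315% had this element within 100 bp of the summit. This share is for a narrower window than the whole peaks searched at the 5 genes, and the whole-peak share is not given here. The absence therefore cannot be read as particular to these genes. At the 3 genes without an HSF1 call, a summit would have needed a pileup of 5 to 7 fragments to pass the HSF1 threshold, estimated from the IgG background at the MYC summit. Lower HSF1 occupancy was not detectable at this depth.

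**Figure D3:**
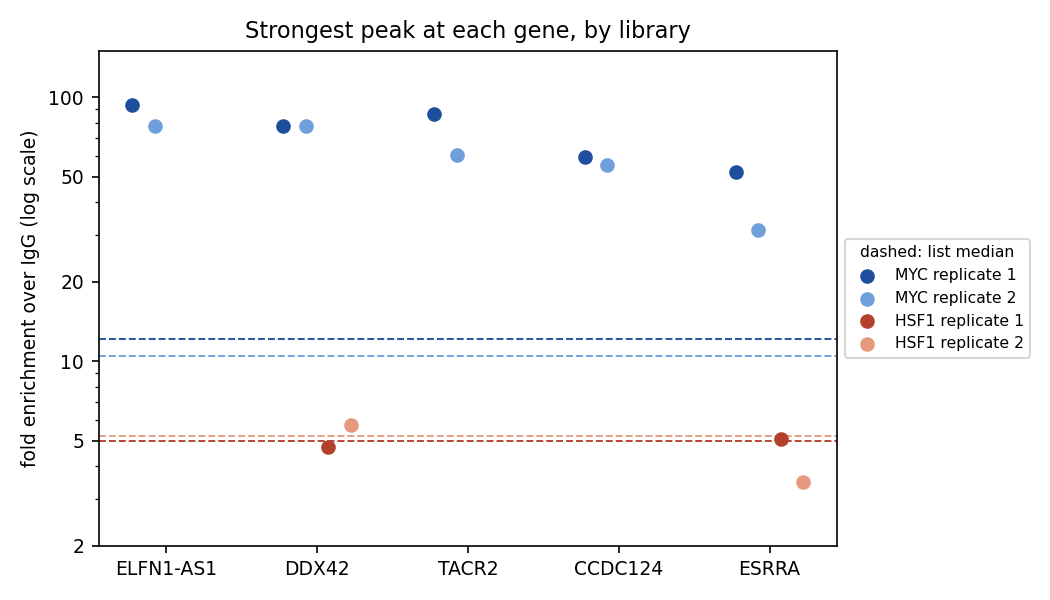
Fold enrichment over IgG (log scale) of the strongest peak at each gene in the 4 lists, with dashed lines at the median of each list. MYC values lie between 31.5 and 93.3, above both MYC medians (12.2 and 10.5), whereas the 4 HSF1 values, at DDX42 and ESRRA only, lie between 3.48 and 5.72 around the HSF1 medians of 5.00 and 5.21.

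Overlap with HSF1 at the highest MYC peaks can be set beside that of all MYC peaks. Of all reproducible MYC peaks, 19.7% overlapped an HSF1 peak of replicate 1, 14.7% one of replicate 2 and 8.23% one of both. In the highest 1%, 118 peaks, the shares were 26.3%, 32.2% and 14.4%. The median width was 1391.5 bp in the highest 1% and 774 bp over all, and overlap was counted from 1 bp. The part of width in these shares was not tested. Of the 10 highest, 2 overlapped HSF1 in replicate 1, 4 in replicate 2 and 2 in both, DDX42 and ENSG00000233242. These classes are sets of peaks of the same libraries and not replicates, so no test was made.

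At each of the 5 genes the nearest E-box was centered more than 100 bp from the higher MYC summit. The nearest CACGTG was centered 102 bp from the higher of the 2 MYC summits at ELFN1-AS1, 116 bp at DDX42, 150 bp at TACR2 and 164 bp at CCDC124. At ESRRA it was 578 bp from that summit, while another E-box was 162 bp from the summit of replicate 2. Thus 0 of the 5 genes had CACGTG wholly within 100 bp of the higher summit, beside 8.31% of all reproducible MYC peaks. With 5 genes, a count of 0 is close to that share and does not set them apart. An E-box beyond 100 bp with its center under 200 bp away was found at 4 of 5, beside 14.4%. With the summits of replicate 1 the counts were 0 and 4. With those of replicate 2 they were 1 and 5, the 1 being ELFN1-AS1, with an E-box 46 bp from its summit. The outer distance was chosen after the positions at these genes were seen.

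The same distance was seen over the whole list. Among all reproducible MYC peaks, E-boxes numbered 2.46 per 100 peaks at 0 to 50 bp from the summit and 9.28 at 100 to 150 bp, the most of any 50-bp bin up to 500 bp. In the highest 1% of peaks these values were 2.54 and 44.1, and 57.6% of the peaks had an E-box beyond 100 bp with its center under 200 bp away, against 16.1% with one within 100 bp. In the 10 highest peaks 8 had an E-box at the outer distance and 1 within 100 bp, but 4 of these 10 peaks are those of the genes on which that distance was chosen. With the summits of replicate 1 the counts were 7 and 2. With the summits of replicate 1 or of replicate 2, the highest 1% had the outer E-box in 56.8% of peaks each. The motif was not used to choose the peaks, but the libraries are the same.

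**Figure D4:**
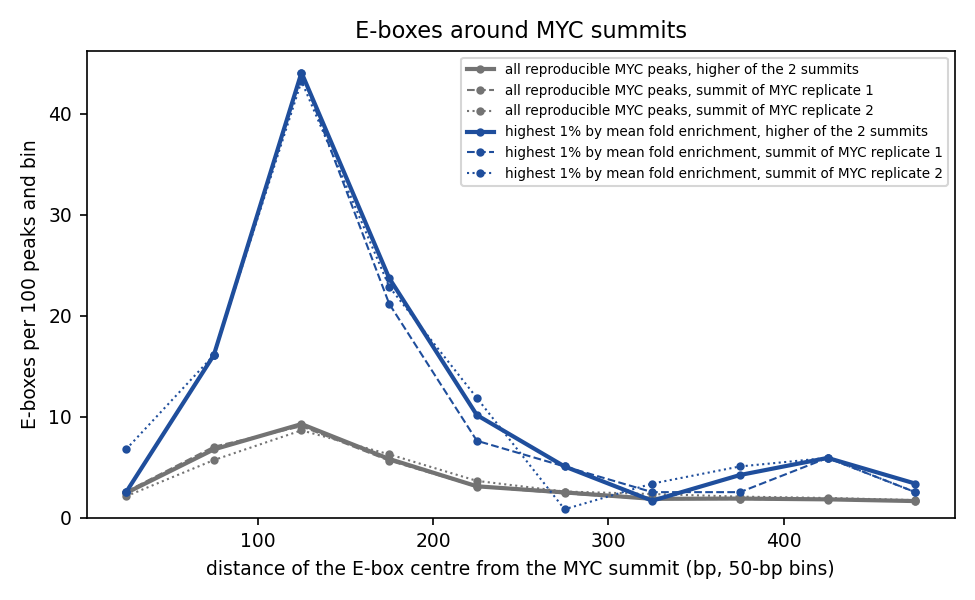
CACGTG E-boxes per 100 peaks (y axis) in 50-bp bins of distance from the MYC summit (x axis, bp), for all 11756 reproducible MYC peaks (gray) and the 118 highest (blue), from the higher summit (solid) and from each replicate's own summit (dashed and dotted). Both classes are highest at 100 to 150 bp, at 9.28 and 44.1 per 100 peaks from the higher summit, and low within 50 bp, at 2.46 and 2.54.

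Each sequence above can be read with its place. At CCDC124 the E-box stands 292 bp upstream of the first annotated start of the gene. At DDX42 it is 12 bp upstream of the start of DDX42-207 and inside the gene, downstream of its outermost start. The 3 printed E-boxes at ELFN1-AS1 are 192 bp, 250 bp and 262 bp inside ELFN1-AS1-202, next to a run of alternating CA bases. The other E-box of that peak, not printed, is 402 bp from the higher summit and 294 bp upstream of ELFN1-AS1-201. The weaker forms CACGCG or CATGTG were within 100 bp of the summit at ELFN1-AS1 and ESRRA, 2 of 5, beside 19.4% of all reproducible MYC peaks. The base composition at the summits varied widely. GC content over 201 bp was 45.3% at DDX42, 53.2% at CCDC124, 59.2% at ELFN1-AS1, 67.2% at TACR2 and 80.6% at ESRRA, and the median of all reproducible MYC peaks was 63.2%.

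**Figure D5:**
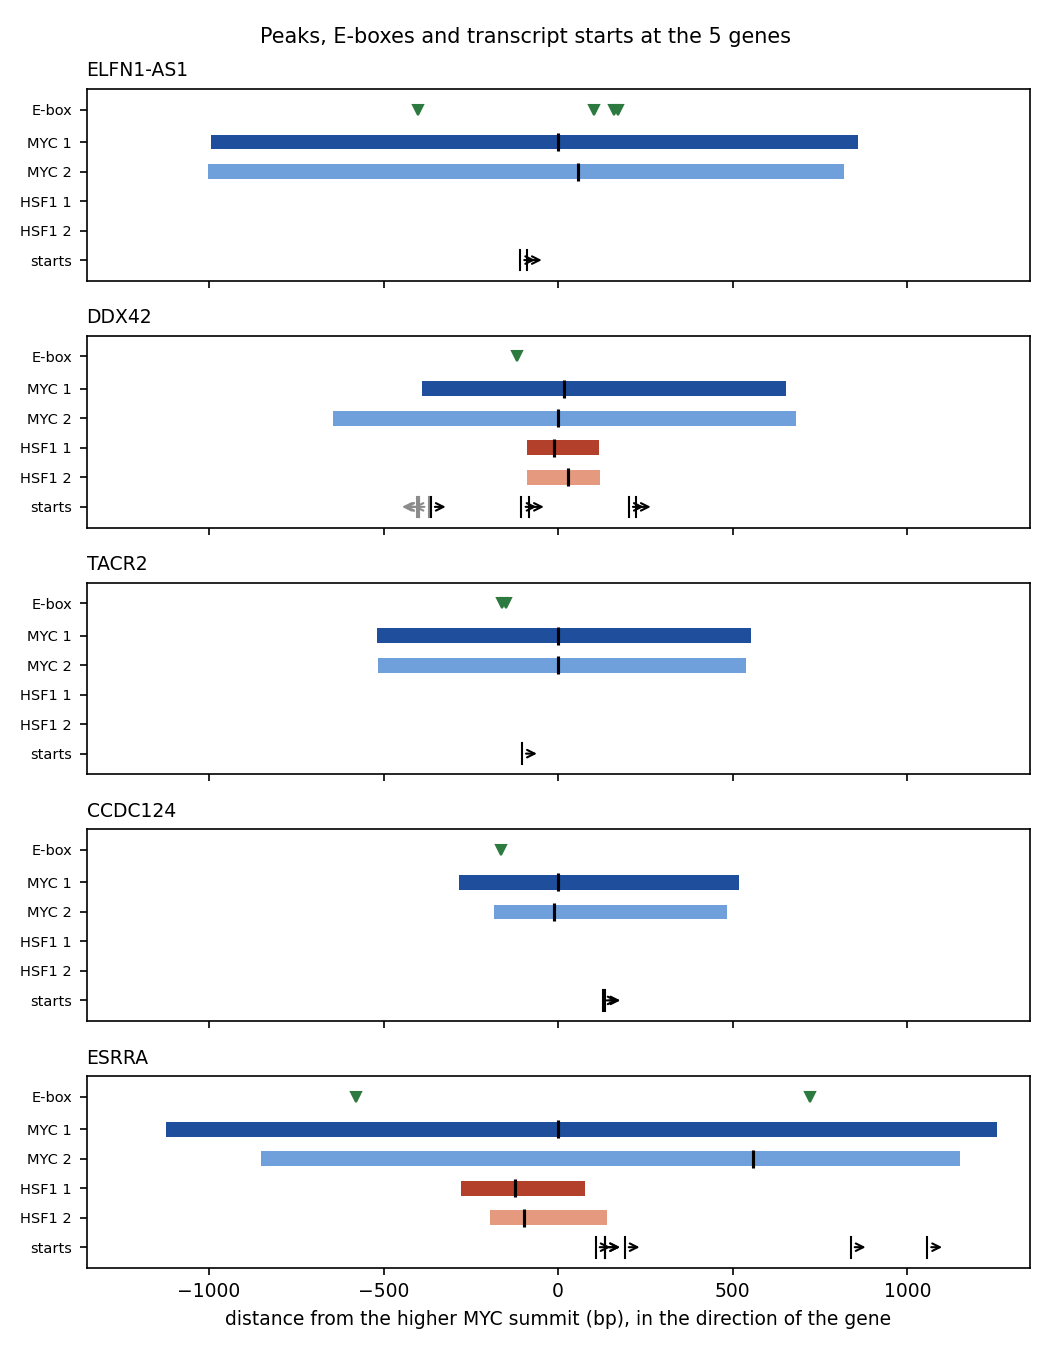
Peaks of the 4 lists at each gene (bars, summit as a black tick), E-boxes (green triangles) and transcript starts (arrows, black for the gene and gray for a neighbor) by distance in bp from the higher MYC summit, in the direction of the gene. HSF1 bars appear at DDX42 and ESRRA only, inside the MYC bars, and the nearest E-boxes stand 102 bp to 164 bp from the summit at the first 4 genes and 578 bp at ESRRA.

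Related genes were taken from lists of symbols. Of 38 DEAD-box helicase genes, 24 had a MYC peak in both replicates, the highest after DDX42 being DDX21, a nucleolar helicase of ribosome biogenesis, with fold enrichments of 48.8 and 46.0. Then came DDX54 with 45.0 and 26.6. HSF1 was called in both replicates at DDX42 and DDX49 only. Of 7 SF3b subunit genes 3 had MYC in both, the highest being SF3B3 with 14.8 and 8.48, and SF3B3 had HSF1 peaks of 12.9 and 13.5 that did not overlap MYC in both replicates. Of 6 genes for tachykinins and their receptors, TACR2 and TAC4 had MYC in both, TAC4 with 18.0 and 15.1, and the receptor genes TACR1 and TACR3 had none. Of the 6 genes for estrogen-related receptors and their coactivators, 3 had MYC in both. PPRC1, a PGC-1-related coactivator, had 40.7 and 51.6, PPARGC1B had 26.4 and 18.6, and of the other receptors ESRRG had 12.1 in replicate 1 alone and ESRRB had none. ELFN2 had 24.0 and 13.4, with HSF1 in both lists at 5.62 and 5.44. Beside the 32.7% of all genes with MYC in both lists, these are counts of short lists and were not tested. That share covers protein-coding and lncRNA genes together, and the share of protein-coding genes alone is not given here. It is therefore not a matched background for these lists.

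The genes most like each member were found by the distance between log2 fold enrichments over the lists in which a gene was called, 2 lists for ELFN1-AS1, TACR2 and CCDC124 and 4 for DDX42 and ESRRA. ELFN1 and CCDC47 were at distance 0 from ELFN1-AS1 and DDX42, since they share the peak. The gene nearest to DDX42 with a peak of its own was MAP4, at 0.83, with MYC at 62.2 and 48.7 and HSF1 at 4.33 and 7.14. Unlike at DDX42, the HSF1 peak of replicate 1 in the MAP4 window did not overlap its highest MYC peak. At ENSG00000233242, the next gene at 0.999, HSF1 peaks of both replicates overlapped the highest MYC peak. TACR2 was nearest to ELFN1-AS1 (0.38) and CCDC124 to ENSG00000286874 (0.11). ESRRA was nearest to MNT, a MAX-binding repressor that competes with MYC, at 0.37, with MYC at 44.9 and 38.2 and HSF1 at 4.72 and 3.27. No HSF1 peak of replicate 2 overlapped the highest MYC peak at MNT, while HSF1 peaks of both replicates did so at ESRRA. Another MYC peak at MNT, at rank 2816, overlapped HSF1 in replicate 2.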

How the data were processed

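CUT&RUN peak lists of OVCAR8 cells were analyzed, 1 list for each of 2 MYC and 2 HSF1 libraries. The authors aligned reads to GRCh38/hg38 with Bowtie 2 (version not given in the sources used here) and called peaks on each library with MACS 2.2.9.1 against 1 IgG library, at p-value thresholds of 1e-04 (HSF1) and 1e-10 (MYC). Replicates were not pooled. The headers call the control IgG replicate 2, while the labels give it no number. Per the file headers, duplicate fragments were kept once.

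The deposited pileup is a signal at the summit and was a whole number at every peak. The deposited fold enrichment is a ratio to the IgG background, from which that background was recovered as (pileup + 1) / fold enrichment − 1. The Poisson probability at this background came within 1% of the deposited −log10 p-value at 100% of peaks with a finite value. The deposited −log10 q-values were not used.

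A reproducible peak was a merged interval of both replicates that overlapped by at least 1 bp, ranked by mean fold enrichment and given to the gene whose start was nearest to its midpoint. Genes and transcript starts came from GENCODE 44 and sequences from GRCh38. Motifs were searched on both strands. Named genes are the 5 genes, those nearest to the 10 highest peaks, neighbors with a start within 5 kb of a summit, the most alike gene and up to 4 examples of each related list. DUSP2 and DDX49 were named after their values were seen. The genes and lists were chosen with earlier results of these data known, and the genes for their MYC values, so no test was run. With 2 libraries per factor, an exact permutation test of a difference could not go below 0.333. Merging and motif search were tested on simulated data and recovered in 20 of 20 and 40 of 40 runs. Python 3.11.15, pandas 2.3.3, numpy 2.4.6, scipy 1.17.1 and matplotlib 3.10.9 were used. Poisson intervals cover counting error only: PCR copies of 1 molecule are not independent.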

Additional observations from a re-analysis of the deposited data

How the results depend on the processing

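The 5 genes had a MYC peak in both replicates under each alternative: 1 kb upstream in place of 5 kb, the nearest start site, a −log10 p-value of at least 20, and either replicate alone. The 2 genes with HSF1 in both replicates fell to 0 at a −log10 p-value of at least 10, as did the 2 with overlapping peaks, of which 1, DDX42, was left when summits had to be within 250 bp. The shares of all genes left under these settings are not given here. Overlap in either replicate pair alone, a count added after the data were seen, was 2. The rank of ELFN1-AS1 among reproducible MYC peaks was 30 by mean pileup, 4 by mean −log10 p-value and 1 to 2 with either replicate left out. These ranks were 39, 8 and 2 to 3 for TACR2, 53, 20 and 6 to 11 for CCDC124, and 303, 113 and 28 to 108 for ESRRA. DDX42 ranked 2 by each measure and 1 to 3 with a replicate left out. Genes with an E-box within 100 bp of the summit, 0 of 5, numbered 4 within 250 bp, 5 in the whole peak, 2 with the weaker forms counted as well, and 0 to 1 with a replicate left out. The shares of all reproducible MYC peaks within 250 bp and in the whole peak are not given here. The count beyond 100 bp and under 200 bp, added after the distances were seen, was 4. No paired analysis was made, as no test was run, and MYC and HSF1 lists of the same number were only set side by side. The −log10 p-value and the pileup depend on depth, and a gene without a peak was not called at this depth, which does not show that the factor is absent.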
